A study of Mus musculus with 6 samples.

Results

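This account concerns 9 trafficking receptors of T cells, the chemokine receptors Ccr2, Ccr4, Ccr7, Ccr9, Cxcr3, Cxcr4 and Cxcr6 and the sphingosine-1-phosphate (S1P) receptors S1pr1 and S1pr4, taken by symbol from the 25655 genes listed in the tables. The cells were CD8 T cells from spleens of female C57BL/6 mice labelled WT or Utx knockout (Utx KO), with 3 libraries per genotype. Utx, encoded by Kdm6a, removes methyl groups from lysine 27 of histone H3. Naive cells of both genotypes were activated with plate-bound antibodies to TCR-β (3 μg/ml) and CD28 (1 μg/ml) for 2 days with interleukin 2 (10 ng/ml), moved to a fresh plate and kept in interleukin 2 for 3 more days, so that all 6 libraries were taken at day 5. The titles call the libraries of each genotype biological replicates. The sources used here do not state how Utx was deleted, the age of the mice, or whether each replicate was a separate animal. Every p-value here reflects no more than the scatter among these 6 libraries, which may not be the scatter among animals. All values are RNA levels in CPM (counts scaled to 1000000 per library) from a 3' end library, in which a transcript yields about 1 tag whatever its length.

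Chemokine receptors and S1P receptors are G-protein-coupled receptors that steer lymphocytes along gradients of their ligands. Naive and central memory T cells enter lymph nodes through Ccr7 and leave them through S1pr1, which senses the S1P of blood and lymph. Effector CD8 T cells carry receptors such as Cxcr3, Cxcr6 and Ccr2, whose ligands are made in inflamed tissue. The comparison of WT with Utx KO cells shows both kinds side by side.

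Of the 4 receptors for inflamed tissue 3 fell in Utx KO cells, the lymph-node receptor Ccr7 and the marrow receptor Cxcr4 rose, and the S1P receptors did not pass the test. Of the 9 receptors, 8 passed the filter of at least 1 CPM in 3 or more libraries, and Ccr9 did not. Of those 8, 3 were called lower (Ccr2, Cxcr3 and Cxcr6) and 2 higher (Ccr7 and Cxcr4) at an adjusted p under 0.05 (limma on log2(CPM + 1), Benjamini-Hochberg over all tested genes). Among all 10590 tested genes 10.8% were called, 5.51% lower and 5.28% higher. The Utx KO and WT libraries did not overlap for 5 of the 8 receptors, against 26.5% of all tested genes. The receptors were picked with results of these data known, so these shares describe the receptors and test nothing.

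**Figure D1:**
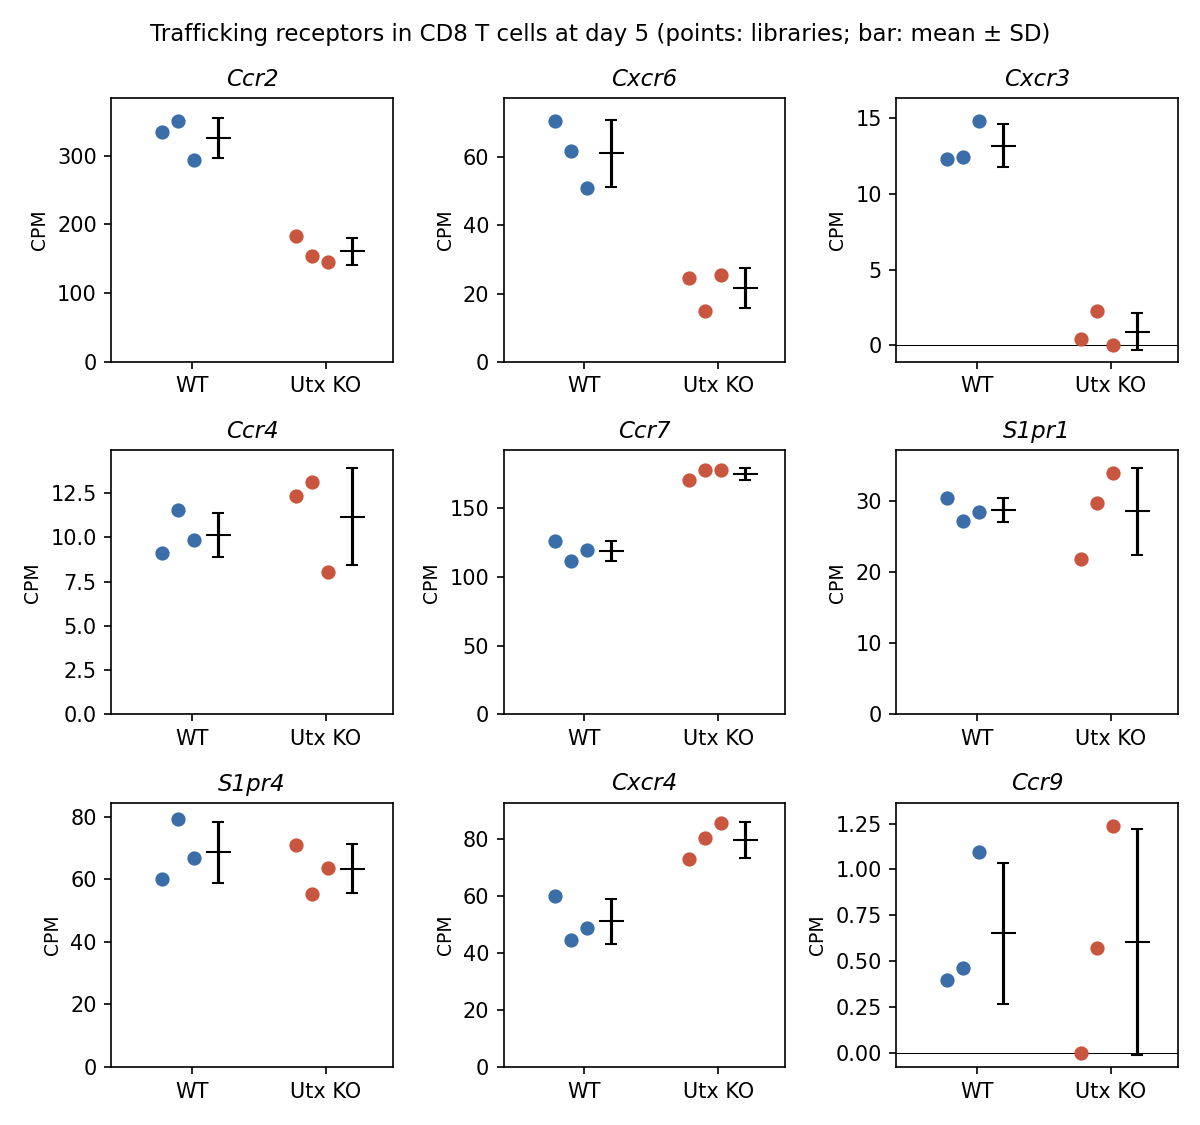
CPM of each of the 9 receptors (vertical axes, CPM) in the WT and Utx KO libraries, with 1 point per library and a bar for mean ± SD (n = 3). Ccr2, Cxcr6 and Cxcr3 lie lower in every Utx KO library than in any WT library, Ccr7 and Cxcr4 lie higher, and the points of Ccr4, S1pr1, S1pr4 and Ccr9 overlap.

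Total depth ran from 1619085 to 2529113 reads per library, so a gene with no read may have been present below 1.19 CPM at the highest depth and below 1.85 CPM at the lowest (the level of 3 reads, counting error only). Kdm6a fell from 49.1 ± 4.67 to 32.9 ± 5.93 CPM (SD, n = 3; limma adjusted p = 0.0123) and was not absent; the deleted part of the gene is not given, so a 3' tag does not check the labels. This call was lost under DESeq2 and on leaving out WT replicate 2 or 3 or Utx KO replicate 1 (adjusted p = 0.0985, 0.0521, 0.0710 and 0.0526, within a range of 0.00510 to 0.0985 over 17 alternatives). The 13 CD8 T cell markers summed to 3005 to 3127 CPM in the WT libraries and 3085 to 3155 CPM in the Utx KO libraries, but 6 of the 10 tested were called, 4 higher and 2 lower, against 10.8% of all tested genes. Of these 6, singled out after their values were seen, Cd5 rose from 24.6 ± 1.53 to 50.8 ± 5.97 CPM, while Thy1 fell from 745 ± 16.2 to 563 ± 4.17 CPM and Cd2 from 417 ± 24.5 to 338 ± 12.9 CPM (limma adjusted p of 3.31e-05, 2.69e-06 and 0.00147). Trac, Trbc1 and Trbc2, which T cells use, were listed at 0 in all 6 libraries, so a gene listed at 0 here need not be silent. The 4 CD4 T cell markers summed to 11.5 to 17.5 CPM in WT and 11.1 to 13.5 CPM in Utx KO, with Cd4 listed at 0 and Foxp3 at 11 to 26 reads per library. The 4 gamma-delta T cell markers, constant genes of the receptor among them, were listed at 0. B cell markers (7 of 11 at 0, among them Ms4a1 and Cd79a) summed to 2.76 to 5.47 CPM in the WT libraries and 0.571 to 1.99 CPM in the Utx KO libraries, dendritic cell markers (4 of 7 at 0, among them Flt3) to 6.45 to 11.9 and 1.99 to 5.56 CPM, and erythroid markers (4 of 7 at 0, among them Alas2) to 0 to 0.461 and 2.28 to 3.09 CPM. NK cell markers (3 of 6 at 0, among them Ncr1) summed to 3.83 to 4.15 and 3.18 to 4.0 CPM. The part of these markers in the results was not tested.

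Ccr2 (ENSMUSG00000049103, chromosome 9, 124101950 to 124113557 in GRCm38) is the receptor of the monocyte-attracting chemokine Ccl2 and also marks effector and memory T cells. It stood at 335, 350 and 294 CPM in WT libraries 1, 2 and 3, against 183, 155 and 145 CPM in Utx KO libraries 1, 2 and 3. It was the most abundant of the 9 receptors in WT, and its highest Utx KO library was far below its lowest WT library. Its log2 fold change was −1.02 (SE 0.08, 95% interval −1.19 to −0.84, limma adjusted p = 4.86e-09), a Utx KO level 0.494 times that of WT. In bulk RNA, fewer cells with the receptor and less receptor RNA per cell cannot be told apart, here and for every receptor below. Monocytes also carry Ccr2. The 13 myeloid markers, 9 of them listed at 0 (among them Lyz2, Itgam, Adgre1 and Cd14), summed to 7.11 to 8.76 CPM in the WT libraries and 7.94 to 12.4 CPM in the Utx KO libraries. The part of these markers in the result was not tested.

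Cxcr6 (ENSMUSG00000048521, chromosome 9, 123806475 to 123811760) binds Cxcl16 and holds CD8 T cells in peripheral tissue such as liver. It stood at 70.4, 61.7 and 50.9 CPM in WT, against 24.6, 14.9 and 25.3 CPM in the Utx KO libraries. Its lowest WT library lay above its highest Utx KO library, with a wider spread among WT libraries than for Ccr7. The log2 fold change was −1.48 (SE 0.18, 95% interval −1.85 to −1.11, limma adjusted p = 2.69e-06), or 0.358 times the WT level.

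Cxcr3 (ENSMUSG00000050232, chromosome X, 101731535 to 101734269) binds the interferon-induced chemokines Cxcl9 and Cxcl10 and guides effector CD8 T cells to infected tissue. In WT it had 31, 27 and 27 reads, or 12.3, 12.4 and 14.8 CPM, and in Utx KO 1, 4 and 0 reads, or 0.397, 2.28 and 0 CPM. Cxcr3 was thus a receptor of low level in WT and was close to the limit of detection in Utx KO. Its log2 fold change was −3.09 (SE 0.40, 95% interval −3.91 to −2.27, limma adjusted p = 6.18e-06). The ratio of pooled CPM, from 5 reads in Utx KO and 85 in WT, was 0.0652 (exact 95% counting interval 0.0206 to 0.158). That interval covers counting error only and leaves out the scatter among libraries. With a pseudocount of 0.1 CPM in place of 1, the log2 fold change became −4.75, so its size rests on a scale that compresses low values.

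Ccr4 (ENSMUSG00000047898, chromosome 9, 114490316 to 114504916), the receptor of Ccl17 and Ccl22 that serves homing to skin, did not follow these. It stood at 9.09, 11.5 and 9.85 CPM in WT, against 12.3, 13.1 and 8.03 CPM in the Utx KO libraries. The groups overlapped, and the log2 difference of 0.10 had a 95% interval of −0.43 to 0.63 (limma adjusted p = 0.876). A change as large as that of Ccr2 lies outside this interval.

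Ccr7 (ENSMUSG00000037944, chromosome 11, 99144196 to 99155077) binds Ccl19 and Ccl21, which draw T cells into lymph nodes. It stood at 126, 112 and 119 CPM in WT, against 170, 178 and 177 CPM in the Utx KO libraries. Libraries of a genotype lay close together and the genotypes did not overlap. The log2 fold change was 0.56 (SE 0.08, 95% interval 0.39 to 0.72, limma adjusted p = 3.44e-05), or 1.47 times the WT level.

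The S1P receptors were measured well above the limit of detection and were not called. S1pr1 (ENSMUSG00000045092, chromosome 3, 115710433 to 115715072), which T cells use to leave lymphoid organs, stood at 30.4, 27.2 and 28.5 CPM in WT, against 21.8, 29.7 and 34 CPM in the Utx KO libraries. The Utx KO libraries lay on both sides of the WT libraries. The log2 difference was −0.03, with a 95% interval of −0.39 to 0.33 (limma adjusted p = 0.953). S1pr4 (ENSMUSG00000044199, chromosome 10, 81497747 to 81500132), an S1P receptor of lymphoid cells, stood at 60.1, 79.3 and 66.8 CPM in WT, against 71.1, 55.4 and 63.6 CPM in the Utx KO libraries. These groups overlapped too, with a log2 difference of −0.11 and a 95% interval of −0.37 to 0.14 (limma adjusted p = 0.657). Both intervals exclude a rise as large as the 0.56 fitted for Ccr7, although the difference between the receptors' changes was not itself tested.

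Cxcr4 (ENSMUSG00000045382, chromosome 1, 128588199 to 128592293) binds Cxcl12 and retains lymphocytes in bone marrow and lymphoid stroma. It stood at 60.1, 44.7 and 48.7 CPM in WT, against 73.1, 80.5 and 85.9 CPM in the Utx KO libraries. Each Utx KO library lay above each WT library, and the log2 fold change was 0.64 (SE 0.12, 95% interval 0.39 to 0.89, limma adjusted p = 0.000838), or 1.56 times the WT level. Ccr9 (ENSMUSG00000029530, chromosome 9, 123678439 to 123784330), which directs T cells to the small intestine, had 1, 1 and 2 reads in WT and 0, 1 and 2 reads in Utx KO, and its exons overlap those of Gm17200 and, on the other strand, Slc6a20a. Every library of Ccr9 lay below 3 reads, so no difference was detectable at this depth and no fold is given.

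**Figure D2:**
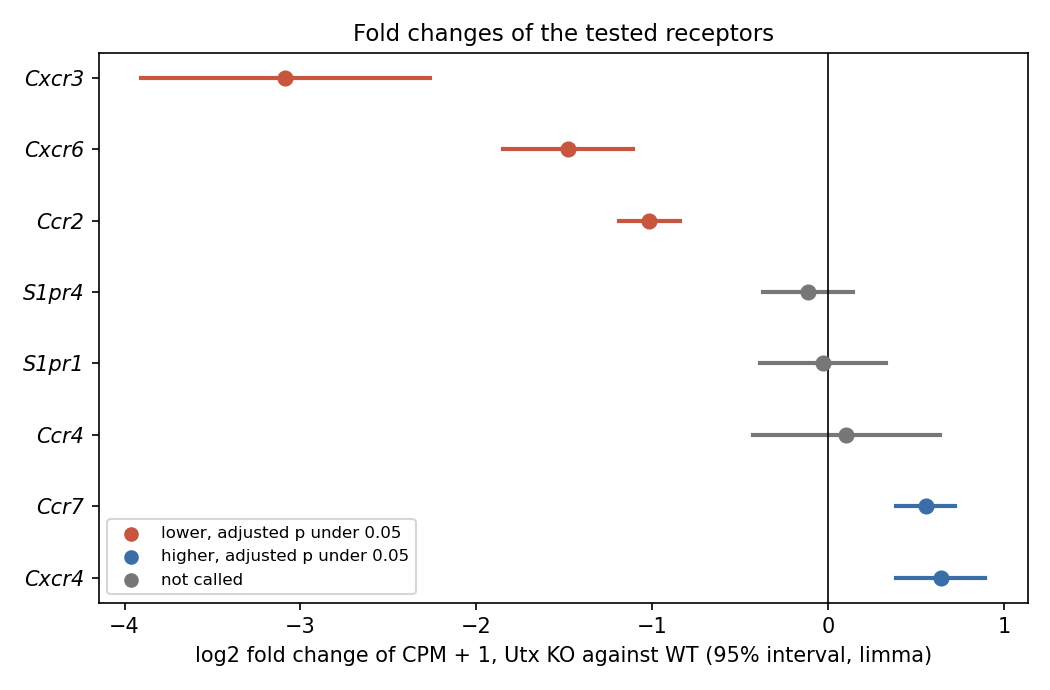
Log2 fold change of CPM + 1 in Utx KO against WT (horizontal axis) with the limma 95% interval for the 8 tested receptors, coloured by call. Cxcr3, Cxcr6 and Ccr2 lie to the left of 0 and Ccr7 and Cxcr4 to the right, while the intervals of S1pr4, S1pr1 and Ccr4 cross 0.

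The order of the receptors by mean level differed between the genotypes. The change at its top is not settled, as in Utx KO library 1 Ccr2 (183 CPM) still stood above Ccr7 (170 CPM). Lower down, Cxcr3 stood above Ccr4 in every WT library and below it in every Utx KO library. In WT, Ccr2 (326 ± 28.9 CPM, SD, n = 3) led Ccr7 (119 ± 7.12 CPM), and S1pr4 (68.7 ± 9.73), Cxcr6 (61.0 ± 9.77) and Cxcr4 (51.2 ± 7.99) followed with overlapping libraries. S1pr1 (28.7 ± 1.64), Cxcr3 (13.2 ± 1.40), Ccr4 (10.2 ± 1.24) and Ccr9 (0.650 ± 0.386) came last, none of them overlapping its neighbour. In Utx KO, Ccr7 (175 ± 4.30 CPM) and Ccr2 (161 ± 19.5 CPM) overlapped at the top, and Cxcr4 (79.8 ± 6.41) stood above S1pr4 (63.4 ± 7.85) without overlap. S1pr1 (28.5 ± 6.15) and Cxcr6 (21.6 ± 5.86) overlapped, Ccr4 (11.2 ± 2.74) followed, and Cxcr3 (0.894 ± 1.22) was in the range of Ccr9 (0.602 ± 0.618).

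Summed over receptors, the balance of inflamed-tissue to lymph-node receptor RNA turned over. Ccr2, Ccr4, Cxcr3 and Cxcr6 together gave 426, 435 and 369 CPM in the WT libraries and 220, 185 and 178 CPM in the Utx KO libraries. Ccr7, S1pr1 and S1pr4 together gave 216, 218 and 214 CPM in the WT libraries and 263, 263 and 275 CPM in the Utx KO libraries. The first sum was 1.97, 2.00 and 1.72 times the second in the WT libraries and 0.837, 0.704 and 0.649 times in the Utx KO libraries. Ccr2 alone made up 78.5% to 80.3% of the first sum in WT and 81.3% to 83.6% in Utx KO, so this ratio mostly sets Ccr2 against Ccr7. It is a description of receptors grouped with results known and carries no test.

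**Figure D3:**
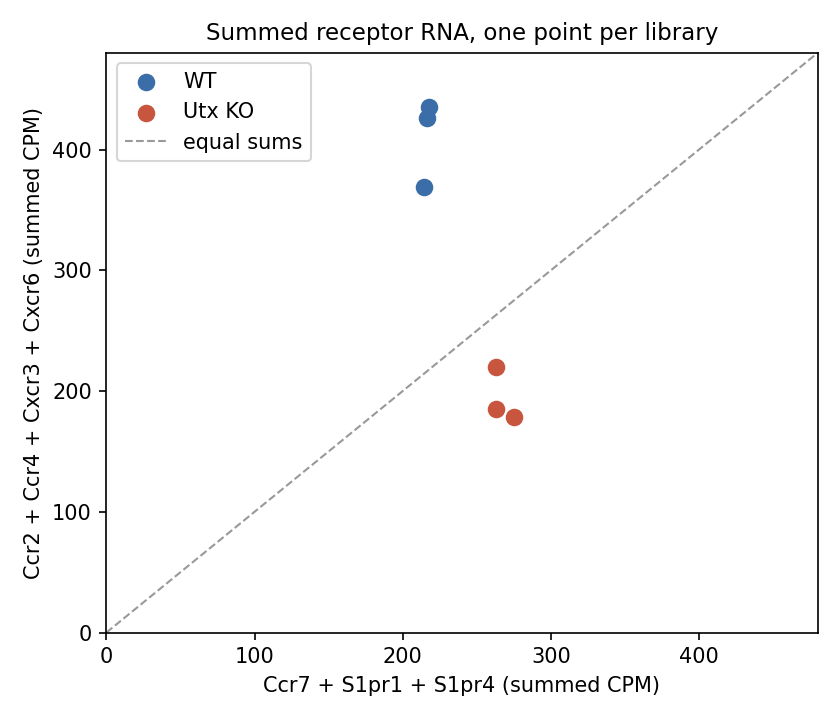
Summed CPM of Ccr2, Ccr4, Cxcr3 and Cxcr6 (vertical axis) against summed CPM of Ccr7, S1pr1 and S1pr4 (horizontal axis), 1 point per library, with a dashed line of equal sums. The WT libraries lie above the line at ratios of 1.72 to 2.00 and the Utx KO libraries below it at 0.649 to 0.837.

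Ccr2, Cxcr6 and Ccr9 lie in the chemokine receptor cluster of mouse chromosome 9, where the neighbours could be read as well. By RefSeq annotation (GRCm38.p6), Ccr9 starts 335 kb before Ccr2. No 50-nt piece of the 3' end of Ccr2, Cxcr6 or Ccr9 occurs in transcripts of other genes.

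From 200 kb before Ccr9 to 200 kb after Ccr2, 14 protein-coding genes of RefSeq were considered, of which 13 are listed in the tables. Of the 8 that passed the filter, 2 were called lower and 0 higher, where 5.51% of all tested genes were called lower. These 2, Cxcr6 and Ccr2, are receptors around which the window was drawn, so this share tests nothing about the region. None of the other tested neighbours was called. The receptor genes Ccr1, Ccr1l1 and Ccr3, which lie between Cxcr6 and Ccr2, were listed at 0 in all libraries, as was Slc6a20a. Fyco1, an adaptor of vesicle transport whose span encloses Cxcr6, stood at 24.1, 20.3 and 13.7 CPM in WT, against 16.3, 26.8 and 25.3 CPM in the Utx KO libraries (limma adjusted p = 0.605). Sacm1l, a lipid phosphatase at the edge of the window, stood at 26.1 ± 6.98 and 36.8 ± 4.49 CPM (SD over 3 libraries, limma adjusted p = 0.0791). The remaining tested neighbours, Slc6a20b, Lztfl1, Xcr1 and 2010315B03Rik, were below 7 CPM in every library and were not called.

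**Figure D4:**
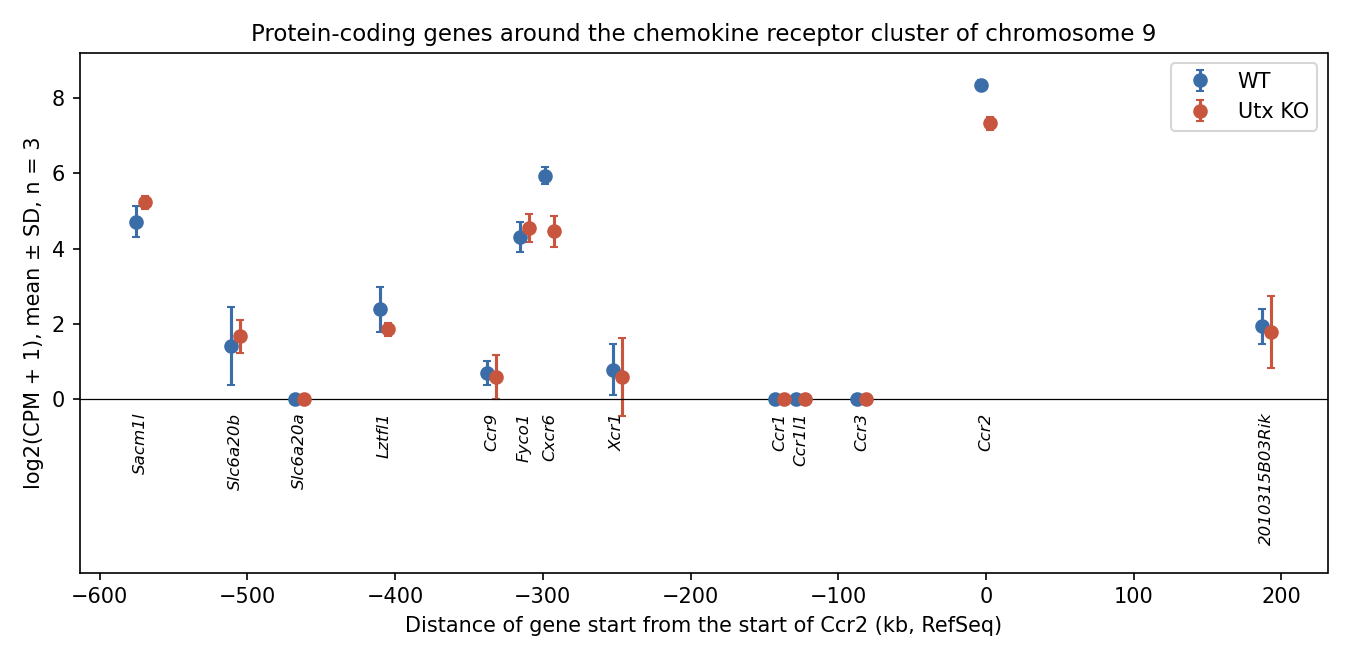
Mean ± SD (n = 3) of log2(CPM + 1) in WT and Utx KO (vertical axis) for 13 listed protein-coding genes around the receptor cluster, placed by the distance of their start from that of Ccr2 (horizontal axis, kb). Cxcr6 and Ccr2 are lower in Utx KO, Ccr1, Ccr1l1 and Ccr3 between them are at 0 in both genotypes, and Fyco1 next to Cxcr6 overlaps.

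Promoter sequences are shown for Cxcr6, which fell, Cxcr4, which rose, and S1pr4, which was not called, to set receptors of different outcome side by side. The RefSeq table (GRCm38.p6) held 7 of the 9 receptors. Each line gives the 250 bases before the RefSeq start, 5′ to 3′ on the strand of the gene. Capitals mark CACCC or its reverse complement GGGTG, the core of sites bound by Krüppel-like factors such as Klf2. The windows are chr9:123806227-123806476 (plus strand) for Cxcr6, chr1:128592300-128592549 (minus strand) for Cxcr4 and chr10:81500138-81500387 (minus strand) for S1pr4.
Cxcr6: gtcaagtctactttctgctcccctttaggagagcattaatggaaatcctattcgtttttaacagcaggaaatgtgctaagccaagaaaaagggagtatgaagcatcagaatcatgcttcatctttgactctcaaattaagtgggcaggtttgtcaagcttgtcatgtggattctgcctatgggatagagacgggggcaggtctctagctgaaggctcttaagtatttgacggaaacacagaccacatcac
Cxcr4: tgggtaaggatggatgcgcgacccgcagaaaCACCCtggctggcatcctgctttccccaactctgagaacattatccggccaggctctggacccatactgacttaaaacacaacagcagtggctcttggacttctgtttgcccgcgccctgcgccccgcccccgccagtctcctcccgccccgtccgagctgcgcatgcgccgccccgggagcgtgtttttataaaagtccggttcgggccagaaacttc
S1pr4: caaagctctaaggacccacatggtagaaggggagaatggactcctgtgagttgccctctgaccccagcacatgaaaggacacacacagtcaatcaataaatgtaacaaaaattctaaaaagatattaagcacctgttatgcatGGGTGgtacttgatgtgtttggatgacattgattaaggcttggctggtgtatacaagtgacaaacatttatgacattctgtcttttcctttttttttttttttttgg

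The window of Cxcr6 holds 3 CpG dinucleotides and no CACCC, that of Cxcr4 holds 19 CpG and a CACCC 219 bases before the start, and that of S1pr4 holds 0 CpG and a CACCC on the other strand 107 bases before the start. Of all 32851 RefSeq promoter windows of this length, 19.7% have 19 or more CpG and 37.8% have 3 or fewer. CACCC was found on either strand in 4 of the 7 receptor windows (Ccr4, Ccr9, Cxcr4 and S1pr4) and in 52.0% of all windows. The windows of Ccr2, Cxcr3 and Cxcr6 hold none, and a link to outcome was not tested. The window of Ccr2 (chr9:124101933-124102182) lies after the start of the RefSeq gene at 124101918, so it is not upstream of that start. The windows of Ccr4 and Ccr9, which are among the 4 with CACCC, lie wholly inside the gene as GENCODE draws it. That of Ccr2 lies mostly inside and that of Cxcr3 partly inside, and none of these windows is printed. The printed window of Cxcr6 overlaps its GENCODE gene by 2 bases. The forkhead site GTAAACA, the T-box core AGGTGTG and the Ets site CCGGAAG, searched on both strands, were in 0 of the 7 windows and in 3.17%, 5.10% and 6.91% of all windows. These matches describe letters only, and the absence of a match says nothing about a factor.

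Partners and regulators of lymph-node homing moved in both directions. Of 19 tested genes of this list, 5 rose and 5 fell, against 5.28% and 5.51% of all tested genes. Their median log2 fold change was −0.08, against 0.01 over all tested genes. Klf2, a transcription factor known to drive S1pr1 in resting T cells, stood at 43.9, 43.8 and 42.7 CPM in WT, against 92.1, 98.8 and 96.4 CPM in the Utx KO libraries. It rose without overlap (log2 fold change 1.12, SE 0.11, limma adjusted p = 7.88e-08), while S1pr1 was not called. Its relative Klf3 rose from 30.6 ± 1.13 to 50.9 ± 6.15 CPM (SD over 3 libraries, limma adjusted p = 0.00109), and Foxp1, a factor of T cell quiescence, from 525 ± 8.0 to 626 ± 37.9 CPM (limma adjusted p = 0.00262). Foxo1, an activator of Klf2 and Ccr7, fell from 115 ± 4.17 to 90.2 ± 11.1 CPM (limma adjusted p = 0.020), opposite to those genes. Cd69, which removes S1pr1 protein from the cell surface, was at 28.1 ± 9.56 and 27.8 ± 12.5 CPM (limma adjusted p = 0.913).

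The call of Foxo1 was lost under DESeq2 and on leaving out WT replicate 1 or 3 or Utx KO replicate 1 or 2 (adjusted p = 0.107, 0.0827, 0.0649, 0.0908 and 0.0512; range over 17 alternatives 0.00621 to 0.107).

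Adhesion molecules that act beside chemokine receptors on vessel walls gave mixed results. Itga4, Itgal, Itgb1 and Cd44 were called lower and Itgb7 alone higher. Selplg and Icam2 were not called (limma adjusted p of 0.469 and 0.965), and Itgae, with 1 pooled read in each genotype, was not tested. The integrin chain Itga4, which pairs with Itgb1 or Itgb7 to bind vessels of inflamed tissue and gut, fell from 22.1, 20.3 and 21.3 CPM in the WT libraries to 4.37, 4.0 and 5.56 CPM in the Utx KO libraries (log2 fold change −1.99 with SE 0.25, limma adjusted p = 4.30e-06). Its exons overlap those of Cerkl on the opposite strand, and the strand setting of the counting is not given in the sources used here. Klf3, Foxo1, Gng2, Gnb5 and Tln1 also overlap a gene on the opposite strand, and Foxp1, Arrb2 and Gnb2 one on their own strand. These overlaps are of any exon. Of the 50-nt pieces of the 3' end, 0% for Arrb2 and Gnb2 and 7.52% for Foxp1 occur in transcripts of other genes. With the strand setting unknown, reads of the opposite-strand pairs may not be told apart where the exons overlap. Itgal, a chain of the integrin LFA-1 that chemokine receptors activate, fell from 294 ± 13.8 to 207 ± 2.77 CPM (SD over 3 libraries, limma adjusted p = 9.84e-06). Cd44, a hyaluronan receptor of activated T cells, fell from 84.4 ± 4.09 to 61.9 ± 6.69 CPM (limma adjusted p = 0.00865). The integrin chain Itgb1, singled out after its values were seen, fell from 207 ± 17.7 to 169 ± 6.34 CPM (limma adjusted p = 0.0157). How far the call of Itgb1 depends on the processing is not given here. The integrin chain Itgb7, singled out likewise, rose from 88.0 ± 5.98 to 110 ± 2.53 CPM (limma adjusted p = 0.0299). Its call was lost under DESeq2 and on leaving out WT replicate 2 or 3 or Utx KO replicate 2 or 3 (adjusted p = 0.243, 0.135, 0.0968, 0.0832 and 0.0822; range over 17 alternatives 0.0268 to 0.243). The call of Cd44 was lost with DESeq2 and without Utx KO replicate 2 (adjusted p = 0.0769 and 0.0623; range over 17 alternatives 0.00500 to 0.0769).

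Of 16 further chemokine receptor genes reported here, 11 were listed at 0 in all libraries, among them Ccr1, Ccr3, Ccr6, Ccr8 and Cx3cr1. Of the 4 that passed the filter limma called 0, with unadjusted p-values under the threshold for Ccr10 (0.00742) and Cxcr5 (0.0435), against 10.8% called over all tested genes. Ccr10, a receptor for skin chemokines, had 0, 2 and 1 reads in WT and 9, 7 and 2 in Utx KO. The pooled CPM ratio was 6.65 (exact 95% interval 1.94 to 35.3), for counting error only, without the scatter among libraries. Ccr10 passed the filter only through the Utx KO libraries, where it was higher. So neither this ratio nor the p-value of Ccr10 in the main fit is support for a rise. It did not pass the test (limma adjusted p = 0.0633), but did with no filter on low values (0.0245; range over 11 alternatives 0.0245 to 0.284). It was not tested under edgeR, limma-voom or the stricter filter, or when any Utx KO library was left out. Cxcr5, the receptor for B cell follicles, whose exons overlap Bcl9l on the other strand, was at 1.16 ± 1.01 and 2.83 ± 0.354 CPM (SD over 3 libraries, limma adjusted p = 0.202). Ccrl2 was at 3.68 ± 2.84 and 2.14 ± 1.61 CPM and Xcr1 at 0.856 ± 0.748 and 0.824 ± 1.43 CPM (limma adjusted p of 0.597 and 0.894). Cxcr2 had 3 pooled reads in WT and 1 in Utx KO.

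Of 18 genes of the synthesis, breakdown and transport of S1P or of related lipids (such as Acer3, Cerk and Spns1), 10 were tested. Limma called 0 of them, where 10.8% of all tested genes were called, with an unadjusted p under the threshold for Acer3 (0.0494). Their median log2 fold change was 0.11. Sgpl1, the lyase that degrades S1P, was at 15.9 ± 1.44 CPM in the WT libraries and 17.2 ± 2.61 CPM in the Utx KO libraries (SD over 3 libraries, limma adjusted p = 0.844). Sphk1, a kinase that forms S1P, had no read in 5 of the 6 libraries. Sphk2, the other such kinase, was at 31.1 ± 1.37 and 35.4 ± 2.06 CPM, without overlap but not called (limma adjusted p = 0.517). Exons of Sphk2 overlap those of Dbp and Rpl18 on the opposite strand. Of the remaining S1P receptors, S1pr2, which inhibits migration, was at 11.5 ± 2.11 and 10.1 ± 2.41 CPM (limma adjusted p = 0.733), S1pr3 had 3 pooled reads in each genotype, and S1pr5 was listed at 0.

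Proteins that carry the receptors' signals had calls in both directions. Of 23 tested G proteins, receptor kinases and arrestins, 2 rose and 2 fell, against 5.28% and 5.51% of all tested genes, with a median log2 fold change of 0.06. Gnai2, the main inhibitory G protein of lymphocyte chemokine receptors, was at 1058 ± 37.7 CPM in the WT libraries and 1127 ± 33.2 CPM in the Utx KO libraries (SD over 3 libraries, limma adjusted p = 0.227). Gng2, a gamma subunit, fell from 139 ± 8.89 to 92.8 ± 6.81 CPM (limma adjusted p = 8.69e-05), and Arrb2, an arrestin that ends receptor signalling, from 167 ± 11.1 to 136 ± 6.55 CPM (limma adjusted p = 0.0208). Grk2, a kinase that desensitises receptors, was at 172 ± 4.26 and 200 ± 7.90 CPM (limma adjusted p = 0.0555). Gnb5 rose from 2.58 ± 0.673 to 7.98 ± 3.13 CPM and Gnb2 from 209 ± 14.0 to 247 ± 9.82 CPM (limma adjusted p of 0.0155 and 0.0271). Of these calls only that of Gng2 held under all 17 alternatives. Arrb2 lost its call under DESeq2 and on leaving out WT replicate 1 or Utx KO replicate 2 or 3 (adjusted p = 0.115, 0.147, 0.0678 and 0.0706; range 0.0119 to 0.147). Gnb5 lost it with DESeq2 and without WT replicate 2 or Utx KO replicate 1 (0.116, 0.0732 and 0.122; range 0.00687 to 0.122), and so did Gnb2 (0.139, 0.183 and 0.0762; range 0.0166 to 0.183). Grk2 was called with edgeR (0.0445) and limma-voom (0.0496; range 0.0445 to 0.297).

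Of 37 tested downstream effectors of migration, 5 were called lower and 0 higher, and 30 of 37 lay below 0 with a median log2 fold change of −0.12. Among those not called, unadjusted limma p-values under the threshold went both ways. They were higher in Utx KO for Skap1 and Arhgap15, and lower for Arhgef6, Prex1, Elmo1, Plcb2 and Rap1b. Over all tested genes 5.51% were called lower and 5.28% higher, and 5189 of 10590 lay below 0. The phosphoinositide 3-kinase catalytic subunits Pik3cd and Pik3cg, the latter activated by chemokine receptors through their G proteins, fell from 868 ± 16.3 to 688 ± 44.4 CPM and from 39.5 ± 0.490 to 23.5 ± 6.53 CPM (SD, n = 3; limma adjusted p of 5.70e-05 and 0.00553). Apbb1ip (RIAM), an adaptor for integrin activation, fell from 215 ± 11.6 to 161 ± 8.25 CPM (limma adjusted p = 0.000452). The cytoskeletal integrin partner Tln1 and the GTPase Rac2 fell by 0.29 and 0.22 on the log2 scale (limma adjusted p of 0.0132 and 0.00902). Tln1 lost its call without WT replicate 2 or Utx KO replicate 1 (adjusted p = 0.0746 and 0.0722; range over 17 alternatives 0.00224 to 0.0746), and Rac2 without WT replicate 3 or Utx KO replicate 2 (0.0549 and 0.0515; range 0.00428 to 0.0549).

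**Figure D5:**
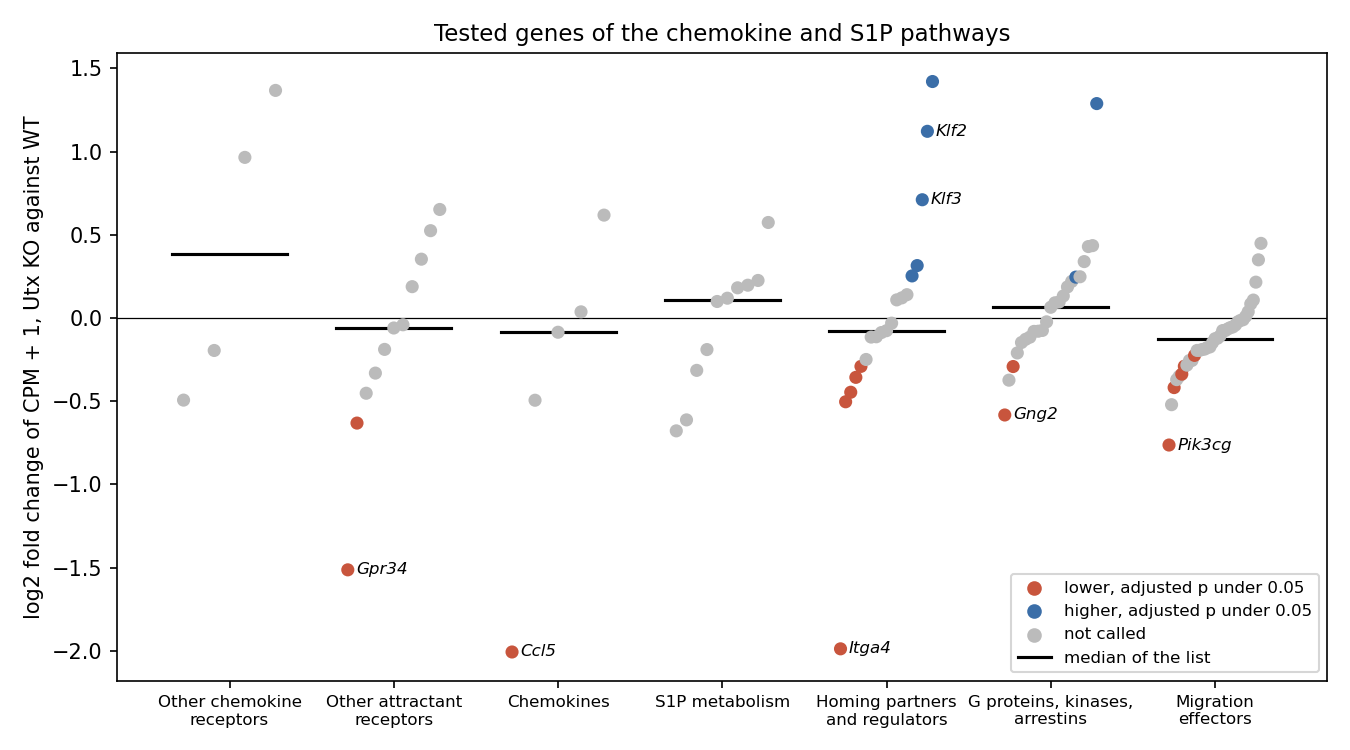
Log2 fold change of CPM + 1 in Utx KO against WT (vertical axis) for the tested genes of 7 pathway lists (horizontal axis), 1 point per gene, coloured by call, with the median of each list as a bar. Homing partners hold calls on both sides of 0, S1P metabolism holds none, and the called migration effectors all lie below 0.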

How the data were processed

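Splenic CD8 T cells were profiled at day 5 in 6 libraries, 3 WT and 3 Utx KO, grouped by the labels' titles. The authors deposited 1 table of CPM per library for 25655 Ensembl genes, made from QuantSeq 3' libraries of 500 ng total RNA per the labels' protocols; the submitters' processing notes name GRCm38 and mm10, and for the aligner, counter, strand setting and any filter the entry is "not given in the sources used here". Each column sums to 1000000, and all values above 0 (100%) were whole reads within 0.001 reads, giving 1619085 to 2529113 reads per library; such depths allow the floors given, for counting error only. A changed use of transcript ends can alter 3' counts. Symbols were found for 25600 identifiers.

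Because CPM are not counts, the test was limma-trend (limma 3.58.1, R 4.3.3) on log2(CPM + 1), genotype only, for 10590 genes with at least 1 CPM in 3 libraries, two-sided, Benjamini-Hochberg adjusted, threshold 0.05. Fold changes on this scale understate changes of low genes. On the recovered reads edgeR 4.0.16 called 1106 of 8832 genes, and DESeq2 1.42.0 and limma-voom were further alternatives, with other pseudocounts, filters, scalings, a replicate block and each library left out. Methods were tested on simulated data. Positions and 3' end pieces (50 nt, from the last 300 nt) come from GENCODE M21. Replicates differed by more than sampling noise, with a chi-square of 1.33 to 2.00 per degree of freedom.

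Genes were named by a rule: the 9 receptors, Kdm6a, every detected chemokine or S1P receptor, up to 6 called genes per pathway list by lowest adjusted p, and 10 fixed genes (Cd69, Klf2, Foxo1, Gnai2, Grk2, Arrb2, Sphk1, Sgpl1, Cxcl10 and Ccl5). Some genes are not reported here: they stayed in the fit and were left out of lists, neighbours and figures. Some further genes were named after their values were seen. Receptors and lists were chosen with earlier results of these data known.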

Additional observations from a re-analysis of the deposited data

How the results depend on the processing

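The calls and directions of Ccr2, Cxcr3, Cxcr6, Ccr7 and Cxcr4 held under all 17 alternatives, with adjusted p-values up to 3.62e-07, 0.000678, 6.78e-05, 0.000700 and 0.0112. Ccr4, S1pr1 and S1pr4 were called under none. Leaving out each library in turn moved the log2 difference of Ccr4 between −0.019 and 0.30, of S1pr1 between −0.16 and 0.14 and of Cd69 between −0.37 and 0.33. That of Xcr1 lay between −0.59 and 0.10 over the 3 such fits in which it passed the filter. These spans cross 0, so the sign of the values given for those genes is not settled, and with edgeR that of Cd69 was 0.013. Of all tested genes, 1142 were called; DESeq2 called 551 (the cause was not tested), and leaving out a library gave 747 (without WT replicate 2) to 1056, where fewer samples were fitted. TMM or median-of-ratios scaling moved the median over all genes by under 0.1. With the replicate number as a block, 1065 genes were called. No shared deviation of same-numbered libraries was seen, which does not settle whether they were paired by design. Their deviations correlated at 0.00602, −0.00272 and −0.00963 over 10590 genes, and the 3 libraries of a genotype did not each match their own number best. At this depth, genes near 1 CPM such as Ccr9 rest on 0 to 2 reads per library.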

Other observations

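Of 11 tested receptors for other attractants of lymphocytes, 2 were called lower and 0 higher, where 5.51% and 5.28% of all tested genes were called. Unadjusted limma p-values were under the threshold without a call for Lpar6 (0.0095) and P2ry10b (0.0280), both higher in Utx KO. The exons of Lpar6 overlap Rb1 on the opposite strand, and 14.4% of the 3' end pieces of P2ry10b occur in P2ry10. Gpr183, an oxysterol receptor that positions T and B cells within lymphoid tissue, stood at 32.8, 32.3 and 23.0 CPM in WT, against 21.1, 18.3 and 16.1 CPM in the Utx KO libraries (log2 fold change −0.63 with SE 0.19, limma adjusted p = 0.0309). Its libraries did not overlap, but the call was lost under DESeq2 and on leaving out either WT replicate 1 or 2 or Utx KO replicate 2 or 3 (adjusted p = 0.195, 0.149, 0.153, 0.0722 and 0.10; range over 17 alternatives 0.0132 to 0.195). Gpr34, a lysophosphatidylserine receptor, had 28, 15 and 16 reads in WT and 4, 4 and 6 in Utx KO, or 8.91 ± 2.08 and 2.53 ± 1.08 CPM (SD, n = 3). It fell by 1.51 on the log2 scale (SE 0.34, limma adjusted p = 0.00383), and this call held under all 17 alternatives.

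Of 35 chemokine genes, 25 were listed at 0 in all libraries and 5 were tested, of which 1 was called, against 10.8% of all tested genes. Ccl5, a chemokine of effector CD8 T cells, fell from 15.4, 12.4 and 9.30 CPM in the WT libraries to 4.77, 1.71 and 1.24 CPM in the Utx KO libraries (log2 fold change −2.01, SE 0.36, limma adjusted p = 0.000351). Cxcl10, a ligand of Cxcr3, had at most 1 read per library in WT and none in Utx KO.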
